A study of Mus musculus with 12 samples.

Results

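The genes of innate nucleic acid recognition Ddx58, Ifih1, Dhx58, Tmem173, Zbp1, Tlr2, Tlr3, Myd88, Eif2ak2 and Mavs were followed in primary mouse oligodendrocyte precursor cells (OPCs, the cells that give rise to myelinating oligodendrocytes). They were chosen by name, as 10 of the 55536 genes in the tables, and all 10 were among the 17919 genes that passed the filter on low counts. Brains of pups aged P4 to P6 were pooled, and OPCs were taken from them by sorting for Sox10-GFP or by magnetic selection for CD140a, and the sources used here do not say which library came from which selection. In the reporter mice, Sox10:Cre switches on EGFP throughout the oligodendrocyte lineage, so the GFP gate is not limited to OPCs. All cultures grew in proliferation medium with PDGFaa and bFGF. The Ctr group was untreated, the Dexa group received 1 µM dexamethasone (a synthetic glucocorticoid) for 48 h, and the IFNg group received 100 ng/ml interferon gamma (IFN-γ) for 48 h. Each group had 4 libraries of total RNA from different litters, numbered 1 to 4. The labels name EAE as the mouse model for these samples, whereas their growth protocol describes cultures from pups.

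The table of Dexa replicate 3 held 33.7% of the transcripts, and of these genes it listed only Dhx58 whole, so the reported genome-wide fit did not use that library and 3 Dexa libraries remained. The other 11 libraries held 19209063 to 52074652 reads assigned to transcripts. All 9 OPC marker genes, among them Pdgfra, Cspg4 and Sox10, passed the filter, with a summed normalized count of 183146 to 421120 in Ctr, 204014 to 464811 in Dexa and 124998 to 292641 in IFNg. With IFN-γ 5 of the 9 OPC markers were called lower and none higher (DESeq2, replicate number as block; list median -0.56 on the log2 scale). Over all genes tested the same fit called 14.1% lower and 15.2% higher. The log2 fold change was -2.09 ± 0.14 for Gpr17, -2.37 ± 0.15 for C1ql1, -0.56 ± 0.08 for Sox10 and -0.61 ± 0.14 for Pdgfra, and without the block C1ql1 alone was called. The part of these differences in the values below was not tested. Astrocyte markers (8 of 8 genes passed) were also present. Their summed level followed the replicate number, at 51570 to 66209 in the libraries numbered 1 and 18998 to 35581 in those numbered 3. S100b, one of these markers, went the other way, at 104 to 312 in number 1 and 800 to 1994 in number 3. Markers of microglia and macrophages are given beside Tlr2.

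These genes encode sensors that set off antiviral defence inside a cell, together with their adaptors. RIG-I (Ddx58) and MDA5 (Ifih1) are cytosolic helicases that bind viral double-stranded RNA and signal through MAVS on mitochondria, and LGP2 (Dhx58), a relative without signalling domains, modulates them. STING (Tmem173) sits in the endoplasmic reticulum and responds to the cyclic dinucleotide that cGAS makes on cytosolic DNA, ZBP1 binds nucleic acids in the left-handed Z form and can start necroptosis, TLR3 reads double-stranded RNA in endosomes, and PKR (Eif2ak2) halts translation when it binds double-stranded RNA. The group name does not cover every member: TLR2 is a cell-surface receptor for bacterial lipoproteins, and MyD88 and MAVS are adaptors that bind no nucleic acid themselves. Many of these genes are known interferon-stimulated genes in other cells.

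Promoter windows from RefSeq (GRCm38.p6, 250 bases before to 50 after the annotated start) were found for 7 of the 10 genes and searched on both strands. The core of the interferon-stimulated response element (ISRE), GAAA followed by any 2 bases and GAAA, stood in 4 of these 7 windows and in 3.44% of all 32851 windows of the table. The gamma-activated sequence (GAS), TTCNNNGAA, stood in 2 of 7 and in 8.3% of all windows, and the NF-kB consensus in 2 of 7 and in 8.46%. The palindromic glucocorticoid response element, AGAACA followed by any 3 bases and TGTTCT, was in none of the 7 windows and in 0.00913% of all. The matches are printed because the first 3 motifs are those that interferon-activated and inflammatory factors are known to bind, each with 30 bases of the gene's own strand and the match in capitals. These are matches of letters, with no measurement of binding.
Ifih1, ISRE core at +33 to +42, chr2:62646206-62646235: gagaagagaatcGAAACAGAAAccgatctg
Ddx58, ISRE core on the opposite strand at +3 to +12, chr4:40239804-40239833: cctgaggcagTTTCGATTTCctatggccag
Myd88, ISRE core at -40 to -31, chr9:119340039-119340068: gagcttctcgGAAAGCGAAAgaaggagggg
Eif2ak2, ISRE core at +19 to +28, chr17:78882535-78882564: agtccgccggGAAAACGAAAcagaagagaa
Eif2ak2, GAS at -178 to -170, chr17:78882731-78882760: ctgcagagctTTCCCAGAAtggaagccagg
Tlr2, NF-kB at -172 to -163, chr3:83841761-83841790: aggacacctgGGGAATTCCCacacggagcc
Tlr2, NF-kB at -8 to +2, chr3:83841597-83841626: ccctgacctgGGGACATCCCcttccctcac
Tlr3, NF-kB at -211 to -202, chr8:45410572-45410601: agttgtttctGGGAGTTTCCtgcttttgag
The GAS match of Myd88, at -46 to -38, overlaps its ISRE core, and the Tlr2 match at -172 also reads as a second NF-kB match shifted by 1 base. The Mavs window held no match to any of the 4 motifs. Dhx58, Zbp1 and Tmem173 were not searched.

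In GRCm38 coordinates the RIG-I-like receptor genes lie at chr4:40203773-40239828 (Ddx58, ENSMUSG00000040296), chr2:62595798-62646255 (Ifih1, ENSMUSG00000026896) and chr11:100694884-100704271 (Dhx58, ENSMUSG00000017830), all on the minus strand. Mavs (ENSMUSG00000037523) is at chr2:131234063-131248025 and is the only member on the plus strand. Tmem173 (ENSMUSG00000024349) is at chr18:35733679-35740554 and Zbp1 (ENSMUSG00000027514) at chr2:173206612-173218923. Tlr3 (ENSMUSG00000031639) is at chr8:45395665-45411080, Tlr2 (ENSMUSG00000027995) at chr3:83836272-83841767, Myd88 (ENSMUSG00000032508) at chr9:119335934-119341411 and Eif2ak2 (ENSMUSG00000024079) at chr17:78852564-78882573.

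The first comparison asked what 48 h of IFN-γ did to these genes. Of the 10 genes 9 rose and Mavs did not pass the test (DESeq2 with the replicate number as a block, adjusted p under 0.05 over 17919 genes). Among all genes tested 15.2% were called higher, and 29.2% were called in either direction. edgeR's quasi-likelihood test with the same block also called 9 of 10 (31.3% of all genes), and DESeq2 without the block 8 of 10 (12.8%). Every IFNg library lay above every Ctr library for 8 of the 10 genes, against 8.66% of all genes tested. Zbp1 and Tlr2, which are within these counts, would not have reached 10 counts in 4 libraries without the IFNg libraries. The filter thus favoured their rise and their lack of overlap, here and against Dexa. The median log2 fold change was 3.16 over the 10 genes and -0.01 over all genes. In bulk RNA, more cells with a transcript and more RNA per cell cannot be told apart.

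**Figure D1:**
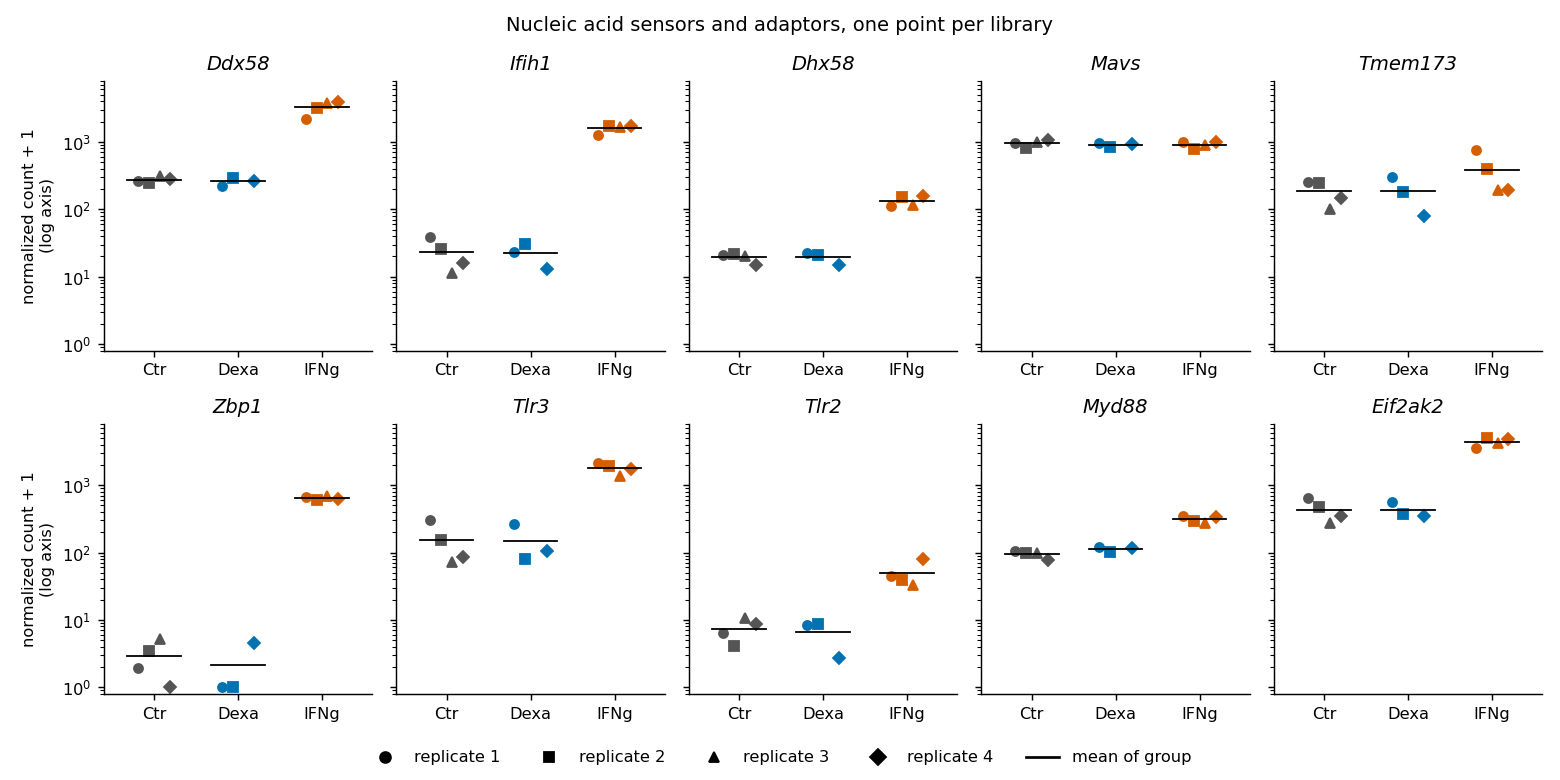
Normalized count plus 1 (log axis, the same for all panels) of each gene in the 4 Ctr, 3 Dexa and 4 IFNg libraries, one point per library with its replicate number as the marker and the group mean as a line. In 8 panels all IFNg points lie above all Ctr points, in the Tmem173 panel they overlap, and in the Mavs panel the groups lie at the same height.

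Ddx58 and Ifih1, the cytosolic RNA helicases that signal, rose in every pair. Normalized counts (counts divided by the library's size factor) of Ddx58 were 259, 245, 307 and 278 in Ctr replicates 1 to 4 and 2224, 3219, 3803 and 3934 in the IFNg replicates of the same numbers. Every IFNg library thus lay above every Ctr library, with the smallest increase in replicate 1. The log2 fold change was 3.57 ± 0.12 (SE), an 11.9-fold rise with a 95% confidence interval of 10.1 to 14.1 (DESeq2 adjusted p = 8.6e-184, edgeR adjusted p = 4.17e-09).
Ifih1 was nearly silent in untreated OPCs. Its Ctr libraries had normalized counts of 37.6, 24.8, 10.3 and 15.2, and its IFNg libraries 1277, 1716, 1667 and 1751. The ratio within a replicate number ranged from 33.9 to 161.3. The Ctr libraries, with 14 to 41 counts each, spread over a wider relative range than the IFNg libraries. The fitted change was 6.33 ± 0.42 on the log2 scale, or 80.2-fold (45.2 to 142.3; DESeq2 adjusted p = 6.47e-49, edgeR adjusted p = 3.55e-08).

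Dhx58, the modulator of both helicases, rose from a low level. The Ctr libraries held 20.2, 20.4, 19.3 and 14.1 normalized counts and the IFNg libraries 110.3, 152.9, 113.1 and 156.6. The groups were far apart, with a log2 fold change of 2.83 ± 0.28 (DESeq2 adjusted p = 1.04e-22, edgeR adjusted p = 2.74e-06), or 7.11-fold (4.87 to 10.4). Mavs, through which both helicases signal, was the exception. Its normalized counts were 963, 825, 995 and 1054 in Ctr and 985, 792, 887 and 989.8 in IFNg, and it was higher in 1 of 4 pairs and lower in 3. The log2 fold change of -0.07 ± 0.08 (DESeq2 adjusted p = 0.584, edgeR adjusted p = 0.446) came with an interval of -14.7% to 6.28%, and changes within these bounds cannot be told from none at this depth.

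Zbp1 went from almost no reads to a moderate level. Its Ctr libraries had 1, 4, 6 and 0 counts, and its IFNg libraries 665, 646, 584 and 476, or 661, 609.8, 681 and 611 after normalization. The IFNg libraries were close to each other, with a mean of 641 ± 35.7 (SD, n = 4), and all lay above the highest Ctr library at 4.13. The fitted log2 fold change of 8.49 ± 0.94 (DESeq2 adjusted p = 4.01e-18, edgeR adjusted p = 2.41e-08) corresponds to 360.5-fold with an interval of 100.8 to 1288, with few counts in Ctr. Leaving out 1 library moved this log2 fold change between 7.91 (without Ctr replicate 4) and 9.15 (without Ctr replicate 2), and it was 9.45 with an offset for average transcript length and 9.35 on protein-coding transcripts alone.

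Tmem173, which encodes STING, showed the smallest rise of the 9 genes, and its level followed the replicate number. Ctr libraries 1 to 4 had normalized counts of 252, 244, 101 and 147, and the IFNg libraries of the same numbers 752, 402, 191 and 195. The groups overlapped, but IFNg was higher in 4 of 4 pairs, by 1.33 to 2.98 times. With the block the log2 fold change was 0.91 ± 0.18, or 1.88-fold (1.47 to 2.40; DESeq2 adjusted p = 3.61e-06, edgeR adjusted p = 0.0025). Without the block the change was 1.05 with a DESeq2 adjusted p = 0.201 and an edgeR adjusted p = 0.292, so the call rests on the pairing. Without the libraries numbered 1 it was 0.69 (DESeq2 adjusted p = 0.00115).
The call also rests on which transcripts are counted. In Ctr 41.4% of the gene's reads were assigned to Tmem173-206, an annotated retained-intron transcript, and 42.6% to the protein-coding Tmem173-201. In IFNg these shares were 41.7% and 32.9%. Counted over protein-coding transcripts alone, the normalized counts were 117, 105, 53.8 and 116 in Ctr and 333, 200.5, 107 and 65.6 in IFNg, so that replicate 4 was lower with IFN-γ. The log2 fold change was then 0.62 ± 0.34 with a DESeq2 adjusted p = 0.152. Salmon divides reads between overlapping transcripts by a model, and these libraries were made from total RNA, which can hold unspliced transcripts.

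**Figure D2:**
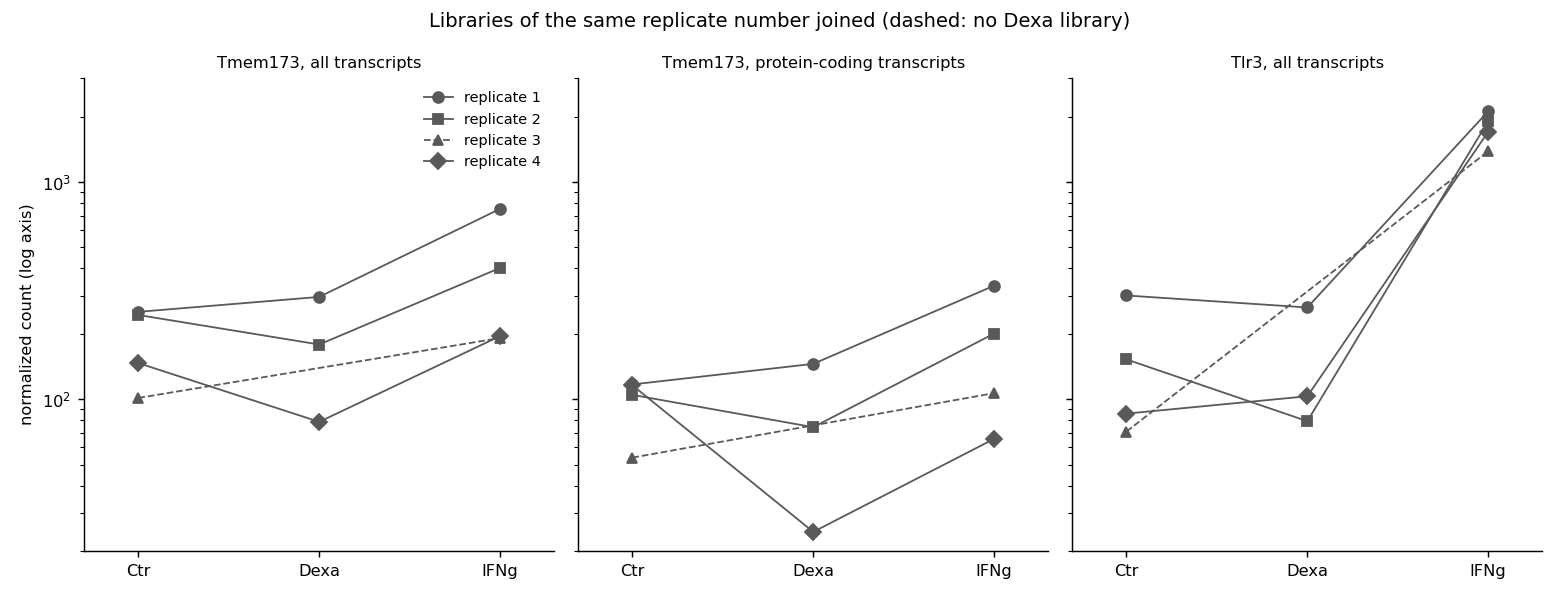
Normalized counts (log axis) of Tmem173 over all transcripts, of Tmem173 over protein-coding transcripts, and of Tlr3, with libraries of the same replicate number joined by a line, dashed for replicate 3, which has no Dexa value. Tmem173 rises from Ctr to IFNg along all 4 lines over all transcripts but along 3 of 4 over protein-coding transcripts, and Tlr3 rises along all 4.

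Of the Toll-like receptors, Tlr3 rose strongly and Tlr2 remained scarce. Tlr3 had normalized counts of 300.2, 152, 70.9 and 85.8 in Ctr and 2117, 1907, 1386 and 1704 in IFNg. The Ctr libraries spread over a wider relative range than the IFNg libraries, and the ratio within pairs ran from 7.05 to 19.9. The log2 fold change was 3.78 ± 0.34, or 13.7-fold (8.67 to 21.6; DESeq2 adjusted p = 1.51e-27, edgeR adjusted p = 1.88e-06).
In Ctr, the libraries numbered 1 and 2 had more Tmem173, Tlr3, Ifih1 and Eif2ak2 than those numbered 3 and 4. The summed astrocyte markers, over all groups, were 41736 to 66209 in numbers 1 and 2 and 18998 to 48224 in numbers 3 and 4. The summed OPC markers went the other way. They were 124998 to 204014 in number 1, 207042 to 342177 in number 2, 292641 to 421120 in number 3 and 290978 to 464811 in number 4. Whether the share of astrocytes or of OPCs contributed to these differences was not tested. By treatment, the astrocyte sum was 18998 to 51570 in Ctr and 35581 to 52294 in IFNg, and its single genes moved both ways. With IFN-γ 4 of the 8 astrocyte markers were called higher and 3 lower, against 15.2% and 14.1% of all genes tested (DESeq2 with the block; list median 0.36). Gfap differed by 4.10 ± 0.34 on the log2 scale, from a mean of 20.2 to 287.7 normalized counts, Aldoc by 0.88 ± 0.15 and Aldh1l1 by 0.76 ± 0.15, against S100b by -1.53 ± 0.14, Aqp4 by -0.81 ± 0.18 and Gja1 by -0.36 ± 0.09. Without the block Gfap and Aldoc alone were called.
Tlr2 had 5.51, 3.10, 9.64 and 7.60 normalized counts in Ctr and 43.7, 38.7, 31.5 and 78.3 in IFNg. All IFNg libraries lay above all Ctr libraries, and the rise of 2.89 ± 0.50 on the log2 scale, or 7.40-fold (3.74 to 14.7), was called (DESeq2 adjusted p = 1.16e-07, edgeR adjusted p = 0.000388). Tlr2 is a known microglial gene. Of the 16 microglia and macrophage markers 4 passed the filter on low counts, and the defining markers Aif1, Cx3cr1, Tyrobp, Trem2 and Siglech had at most 3 counts in every library. The part of such cells in the Tlr2 counts was not tested.

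Myd88, the adaptor of TLR2 and most Toll-like receptors but not of TLR3, rose by a moderate and even amount. Its libraries had 104, 97.9, 96.4 and 77.1 normalized counts in Ctr and 353, 296, 274 and 339 in IFNg. The log2 fold change was 1.73 ± 0.15 (DESeq2 adjusted p = 2.65e-28, edgeR adjusted p = 3.28e-06), or 3.33-fold (2.71 to 4.09). Eif2ak2, which encodes PKR, had 643, 466, 271 and 347 normalized counts in Ctr and 3579, 4925, 4196 and 4810.4 in IFNg. The groups were again far apart. Its change was 3.43 ± 0.27 on the log2 scale (DESeq2 adjusted p = 6.05e-35, edgeR adjusted p = 9.12e-07), or 10.8-fold (7.45 to 15.5), and 97.4% of its reads in Ctr and 98.3% in IFNg were on the protein-coding Eif2ak2-201.

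**Figure D3:**
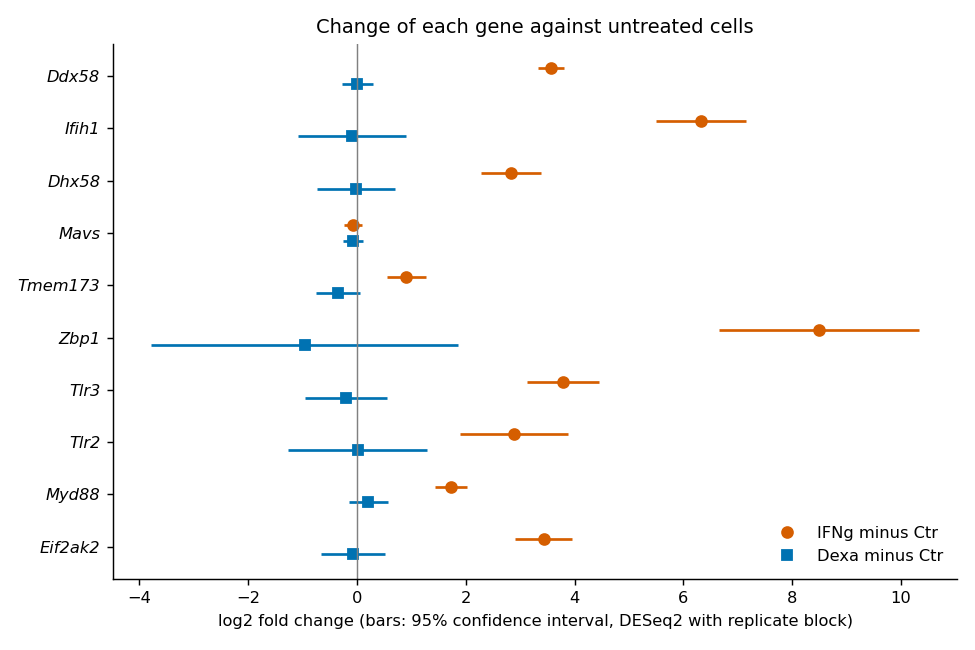
Log2 fold change of each gene (points) with its 95% confidence interval (bars) for IFNg minus Ctr and Dexa minus Ctr, from DESeq2 with the replicate block. The IFNg intervals of 9 genes lie above 0 and that of Mavs spans it, while all 10 Dexa intervals span 0.

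The second comparison asked whether dexamethasone, which dampens immune genes in many tissues, altered the same genes in OPCs that had seen no IFN-γ. It shares its Ctr libraries with the first comparison. None of the 10 genes was called by DESeq2 with or without the block or by edgeR with it, and 0 had an unadjusted p under 0.05 in any of these fits. Among all genes tested DESeq2 called 2.57% with the block (2.05% higher and 0.513% lower) and 0.547% without it, and edgeR with the block 1.57%. The median log2 fold change was -0.07 over the 10 genes and 0.00 over all genes. Ddx58, with normalized counts of 223, 294 and 259 in Dexa replicates 1, 2 and 4, differed from Ctr by 0.00 ± 0.15 on the log2 scale, with bounds of -17.9% and 22.5%. Mavs, with 955, 835 and 938, differed by -0.07 ± 0.09, with bounds of -15.6% and 8.07%.
Tmem173 had the lowest unadjusted p of the 10. Its Dexa libraries held 296, 179 and 78.6 normalized counts, above the Ctr library of the same number in replicate 1 and below it in replicates 2 and 4. The log2 difference of -0.35 ± 0.21 (unadjusted p = 0.0868, DESeq2 adjusted p = 0.681) has bounds of -41.0% and 3.61%. Myd88, at 119.8, 101 and 117, was above its Ctr partner in 3 of 3 pairs, and its log2 difference of 0.21 ± 0.18 did not pass the test (DESeq2 adjusted p = 0.903).
For the other 6 genes the intervals were wider. Eif2ak2 had 566, 378 and 353 normalized counts (log2 difference -0.07 ± 0.31) and Tlr3 264, 79.1 and 103 (-0.20 ± 0.38). Ifih1 had 22.7, 29.5 and 12.2 (-0.09 ± 0.51). Dhx58 had 21.6, 20.2 and 14.0 (-0.02 ± 0.36). The scarce genes could not be resolved: Tlr2 had 7.56, 7.58 and 1.75 normalized counts and Zbp1 had 0, 0 and 2 counts, and a fall from such levels was not detectable at this depth. Dhx58 could also be read in the incomplete Dexa replicate 3, where 6 counts gave a normalized count of 11.4 over the 6319 genes of that fit. With this library the log2 difference was -0.10 ± 0.33 (DESeq2 adjusted p = 0.977).

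IFNg and Dexa libraries were also compared directly. The same 9 genes were called higher in IFNg and Mavs was not, while 31.6% of all genes were called in either direction (16.2% higher and 15.4% lower), and 33.7% by edgeR with the block. Without the block DESeq2 called 8 of the 10 genes and 13.1% of all, and Tmem173, whose groups overlapped, was not called (DESeq2 adjusted p = 0.239, highest adjusted p over the alternatives 0.329). This comparison uses the IFNg libraries of the first and the Dexa libraries of the second. The log2 difference was 3.57 ± 0.14 for Ddx58, 6.41 ± 0.49 for Ifih1, 1.27 ± 0.21 for Tmem173 and 3.98 ± 0.38 for Tlr3. Zbp1 had at most 2 counts in each Dexa library and was at least 175-fold higher in IFNg, against a floor of 3 counts per library. Mavs differed by less than 0.01, with an interval of -12.0% to 13.0%.

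Levels between genes were compared in TPM (reads scaled to transcript length and to a fixed library total), which allows for transcript length. In Ctr, Mavs led with 6.58 ± 0.600 TPM (SD, n = 4), above Tmem173 at 3.40 ± 1.41, Eif2ak2 at 2.36 ± 0.834 and Ddx58 at 1.80 ± 0.300. Myd88 and Tlr3 followed at 0.975 ± 0.148 and 0.921 ± 0.610, and Dhx58, Ifih1, Tlr2 and Zbp1 were at 0.242, 0.119, 0.0424 and 0.0268. Mavs thus stood above every other member in untreated OPCs, and genes outside the members were not ranked. Its libraries did not overlap with those of Tmem173, whereas Tmem173 overlapped with Eif2ak2 and Eif2ak2 with Ddx58. In Dexa the order was the same.
In IFNg, Eif2ak2 led with 25.7 ± 6.55 TPM (n = 4), followed by Ddx58 at 23.1 ± 5.02, and their libraries overlapped. Zbp1, last in Ctr, came next at 16.1 ± 1.43 and did not overlap with Tlr3 at 11 ± 2.99. This place depends on Salmon's split of the Zbp1 reads, 57.4% of which were on the 770-base Zbp1-202. In normalized counts, which do not allow for length, Zbp1 had a mean of 641 and Tlr3 of 1778. Tmem173 at 7.97 ± 5.79, Ifih1 at 7.94 ± 1.39 and Mavs at 7.06 ± 0.784 overlapped as neighbours, with Myd88 at 3.70 ± 0.642 and Dhx58 at 1.68 ± 0.439 below them and Tlr2 last at 0.359 ± 0.163. The 10 genes together summed to 16.5 ± 2.20 TPM in Ctr, 16.2 ± 3.38 in Dexa (n = 3) and 105 ± 15.1 in IFNg.

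**Figure D4:**
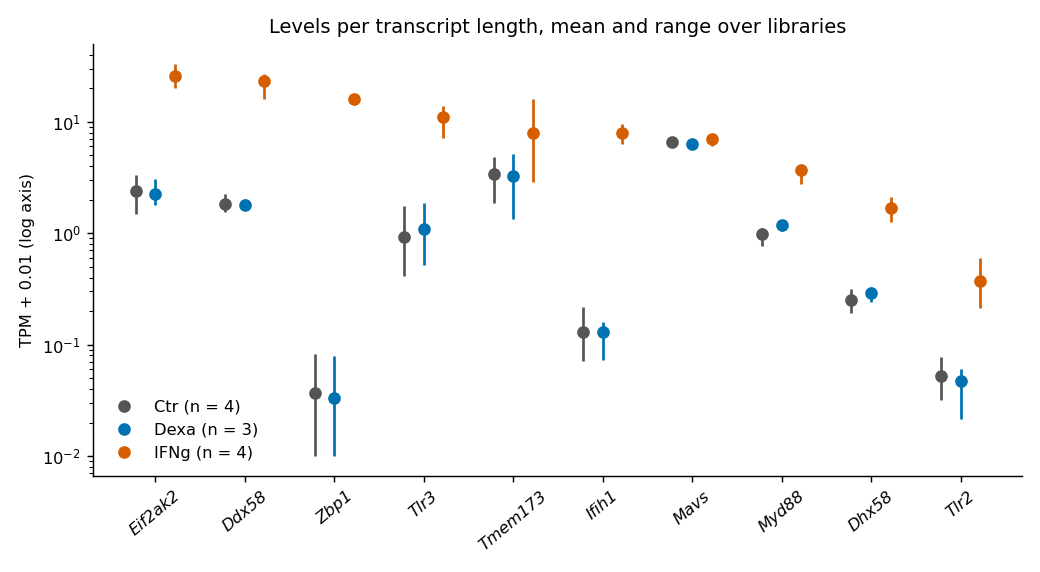
Mean TPM plus 0.01 (log axis) of each gene in Ctr, Dexa and IFNg with the lowest and highest library as a line, genes ordered by their IFNg level. Mavs is the highest gene in Ctr and Dexa but not in IFNg, and Zbp1 moves from the lowest level in Ctr to near the top. The place of Zbp1 depends on how Salmon split its reads between transcripts.

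The reads of most members fell on their main coding transcripts. In IFNg the protein-coding share was 99.8% for Tlr3, 96.4% for Mavs, 93.7% for Myd88, 92.4% for Ifih1, 87.6% for Dhx58 and 83.2% for Zbp1. Tmem173 had the lowest share in IFNg, at 46.2%, and 50.6% in Ctr. For Ddx58 it was 73.5% in IFNg and 67.3% in Ctr, and the processed transcript Ddx58-205 held 19.3% and 24.4%. Of the Zbp1 reads in IFNg, 57.4% were on the short coding transcript Zbp1-202 of 770 bases and 25.8% on Zbp1-201 of 1989 bases. Counting protein-coding transcripts alone kept the IFNg call for every gene that had one except Tmem173.

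For each gene that rose, the tested gene with the most similar profile over the 11 libraries was found by the smallest root mean square difference of log2 normalized counts, centred on Ctr. For Ddx58 it was Irf7, an interferon-inducible transcription factor, at 0.22. For Myd88 it was Rnf135 (0.13), which encodes the ubiquitin ligase Riplet that acts on RIG-I. Eif2ak2 and Tlr3 shared the same nearest gene, Cacnb2, a calcium channel subunit, at 0.18 and 0.37. Ifih1 was nearest to Parp9 (0.31), Dhx58 to Ifit2 (0.23), Tlr2 to Rgs4 (0.44) and Tmem173 to Triobp (0.27). Zbp1 had no close match, with H2-T23 nearest at 0.66.

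The rest of the sensing pathways was read from 9 lists with 125 genes, of which 93 passed the count filter. With IFN-γ 35 of these 93 rose and 5 fell (DESeq2 with the block), against 15.2% and 14.1% of all genes, and edgeR with the block called 37 and 6, while DESeq2 without the block called 26 and 2. Ddx60, Tlr4 and Tlr6, within the 35, and Ly96, within the 37, would not have passed the filter without the IFNg libraries. With dexamethasone 0 of 93 were called by DESeq2 or edgeR with the block, against 2.57% and 1.57% of all genes. In these fits 8 and 13 of the 93 had an unadjusted p under 0.05, and the share of all genes with such a p was not counted.

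Among the other RNA and DNA sensors 7 of 14 were measurable, of which 3 rose, 1 fell and 3 did not pass the test (list median 0.13). The one that fell was Dhx33, by 0.21 on the log2 scale (SE 0.08), and Ddx41 rose by 0.26 ± 0.08, a call lost without the block (DESeq2 adjusted p = 0.105). Ddx60, a helicase linked to RIG-I signalling, rose from 8.26, 7.43, 8.27 and 4.34 normalized counts in Ctr to 393, 671, 1004.7 and 1152 in IFNg (log2 fold change 6.75 ± 0.49, DESeq2 adjusted p = 3.62e-41). Ddx60 would not have reached 10 counts in 4 libraries without the IFNg libraries, so the filter favoured its rise. Cgas, which makes the ligand of STING, had 79.9, 60.7, 31.0 and 41.3 in Ctr and 150.0, 121, 67.6 and 84.7 in IFNg. Its rise of 1.01 ± 0.22 (DESeq2 adjusted p = 2.73e-05, edgeR adjusted p = 0.000691) was not called without the block (DESeq2 adjusted p = 0.093), and like Tmem173 it was highest in the libraries numbered 1. Tlr7, Tlr8, Tlr9 and Tlr13, the other endosomal receptors of nucleic acids, had too few counts to test, and the highest group mean among them was 9.65 normalized counts, for Tlr7 in IFNg.

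Of 12 further Toll-like receptors and accessory proteins 8 were tested and 3 rose (list median 0.96), all from low levels. Tlr4 rose by 2.59 ± 0.45 and Tlr6, the partner of TLR2, by 2.39 ± 0.56, though the groups overlapped for both genes and Tlr6 was not called without the block (DESeq2 adjusted p = 0.106). Neither gene would have reached 10 counts in 4 libraries without the IFNg libraries, so the filter favoured both rises. Unc93b1, which carries endosomal Toll-like receptors out of the endoplasmic reticulum, rose by 1.59 ± 0.32. Downstream of the sensors 6 of 16 tested genes rose and none fell (list median 0.21). Irf7 stood apart at 3.46 ± 0.20, and Tank, Tbk1 and Azi2, a kinase and its scaffolds, rose by 0.65 ± 0.09, 0.47 ± 0.09 and 0.35 ± 0.08. Irf3, the constitutive factor of the same branch, had a log2 difference of -0.20 ± 0.09 that did not pass (DESeq2 adjusted p = 0.0833), so that, as with Mavs, no rise was seen.

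Of 15 regulators of RIG-I-like receptors 5 rose and 1 fell (list median 0.16). The antiviral zinc finger protein Zc3hav1 rose by 3.27 ± 0.16, and the ubiquitin ligases Trim25 and Rnf135, which act on RIG-I, by 2.15 ± 0.12 and 1.83 ± 0.16. The inhibitor Tnfaip3 (A20) rose by 1.37 ± 0.27. Nlrx1, a mitochondrial protein reported to restrain MAVS, was the one that fell, by 0.71 on the log2 scale (SE 0.18, DESeq2 adjusted p = 0.000584, and 0.148 without the block). Of 13 genes for the regulation and trafficking of STING 3 rose and 3 fell (list median -0.10). Ifi35 had the largest rise, from 30.6 to 2636 mean normalized counts (6.44 ± 0.16), with Trim56 at 1.94 ± 0.25 and Dtx4 at 0.52 ± 0.06. Slc19a1, a carrier that can import cyclic dinucleotides in human cells, fell by 0.44 (SE 0.11).

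Enzymes that edit or clear nucleic acids moved upward where they moved at all, with 6 of 11 higher, none lower and 5 not called (list median 0.23). Samhd1, which depletes nucleotides, rose by 2.04 ± 0.10, the RNA editor Adar by 1.18 ± 0.06, the DNA exonuclease Trex1 by 1.12 ± 0.16 and Pnpt1, a mitochondrial RNA exonuclease, by 0.64 ± 0.10. Around PKR, 3 of 13 genes rose and none fell (list median 0.14). Trib3, a target of the integrated stress response, rose by 1.84 ± 0.30, followed by Ddit3 (0.36 ± 0.12) and Asns (0.28 ± 0.09), neither of which was called without the block (DESeq2 adjusted p = 0.055 and 0.254). The other eIF2alpha kinases had log2 differences of -0.07 ± 0.07 (Eif2ak1), 0.05 ± 0.08 (Eif2ak3) and 0.02 ± 0.09 (Eif2ak4), none called, against 3.43 for Eif2ak2.

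Of the 7 cell death partners of ZBP1 5 rose (list median 1.22). Mlkl, the executioner of necroptosis, went from 32.1, 42.1, 35.1 and 23.9 normalized counts in Ctr to 1771, 2038, 1639 and 1638 in IFNg (5.73 ± 0.17), and the pyroptosis effector Gsdmd rose by 4.67 ± 0.27. Casp8 and Ripk1 rose by 1.33 ± 0.28 and 1.22 ± 0.09. Ripk3, the kinase that links ZBP1 to MLKL, stayed scarce, at a mean of 11.5 normalized counts in Ctr and 10.5 in IFNg (log2 difference -0.09 ± 0.52, DESeq2 adjusted p = 0.93).

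**Figure D5:**
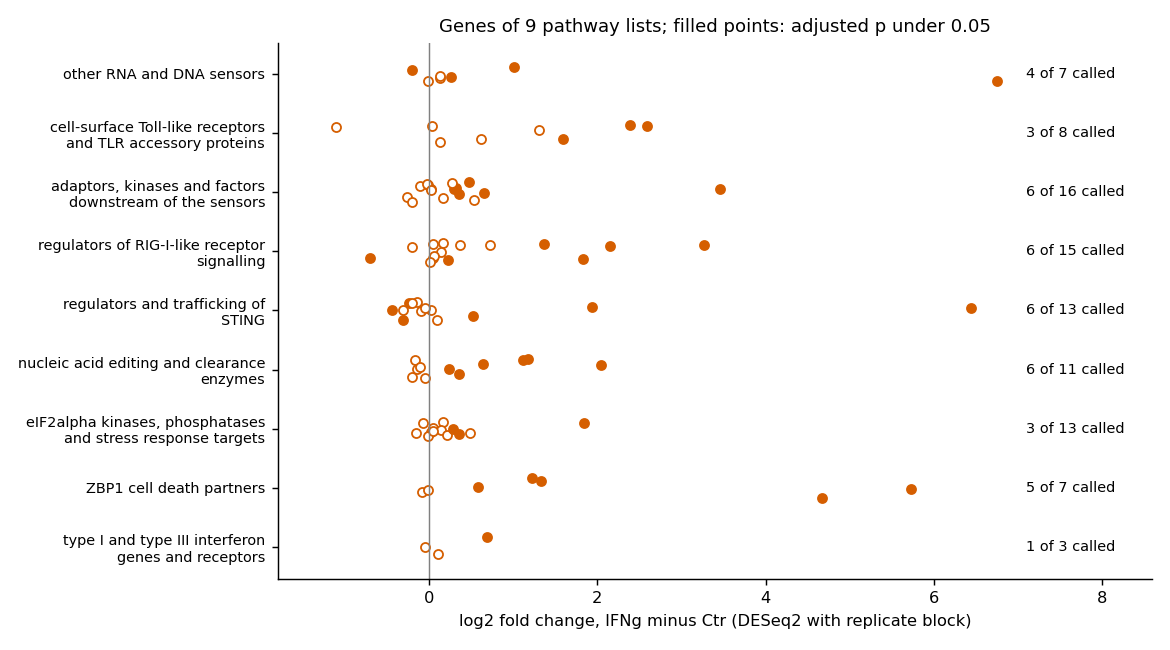
Log2 fold change (IFNg minus Ctr) of each tested gene of the 9 pathway lists, filled where the DESeq2 adjusted p was under 0.05, with the count of called genes at the right. Most filled points lie to the right of 0, the farthest being Ddx60 (6.75), Ifi35 (6.44) and Mlkl (5.73). Ddx60 would not have passed the count filter without the IFNg libraries.

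The type I and type III interferon genes, the usual output of these sensors, were hardly detected. Of 18 such genes 13 had no read in any of the 11 libraries, among them Ifnb1, for which 0 counts allow up to 3 counts per library. The other 5 reached at most 11 counts in a library, and none could be tested. Of the receptor subunits, Ifnar2 rose by 0.69 ± 0.09 with IFN-γ (DESeq2 adjusted p = 4.08e-14, edgeR adjusted p = 2.37e-05), while Ifnar1 had a log2 difference of -0.05 ± 0.07 that was not called.

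Markers of other cells also differed between the IFNg and Ctr libraries. The 7 neuron markers, of which 5 passed the filter and none was at 0 in every library, summed to 1401 to 1646 normalized counts in Ctr, 1754 to 1981 in Dexa and 2757 to 5109 in IFNg. This sum follows Tubb3, which reached 4528, and the 5 tested markers did not move together: 2 were called higher, 2 lower and 1 not (DESeq2 with the block; list median -0.36). The shares over all genes tested were 15.2% higher and 14.1% lower. Tubb3 differed by 1.52 ± 0.16 on the log2 scale and Syt1 by 1.11 ± 0.18, against Snap25 by -0.46 ± 0.13 and Gad1 by -1.33 ± 0.37, and without the block only the calls of Tubb3 and Syt1 remained. The part of this difference in the values above was not tested. T cell and B cell markers (0 of 6 passed) summed to at most 11.9 normalized counts in any library.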

How the data were processed

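RNA was measured in 12 libraries of cultured mouse OPCs. Per the labels and methods, the authors trimmed the reads and quantified them with Salmon 0.8.2. They deposited, for each library and transcript, an estimated count and a TPM value. The transcript identifiers matched GENCODE M21 (GRCm38), whereas the study's methods name Ensembl version 75 for its STAR alignment. The deposited tables of fold changes and p-values from the authors' DESeq2 runs were not used. Estimated counts were summed per gene and rounded to whole numbers, and TPM was summed per gene.

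The 17919 of 55536 genes that reached 10 counts in 4 or more of the 11 complete libraries were fitted with DESeq2 1.42.0 in R 4.3.3, with group and replicate number as terms and Benjamini-Hochberg adjustment over all of them. A gene was called at an adjusted p under 0.05. Alternatives were edgeR 4.0.16 (quasi-likelihood, TMM), fits without the block, TMM factors in DESeq2, no filter or at least 50 counts, a transcript length offset, only the 2 groups compared, and each library left out. Leaving out all libraries of replicate 1 and counting protein-coding transcripts only were added after the data were seen. The script was tested on simulated data.

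The replicate numbers pair the libraries: deviations from group means correlated at 0.404 to 0.722 in the 10 pairs with the same number and at -0.614 to 0.495 in the other 30, and each number shares a title prefix (numbers 3 and 4 share one). Replicates came from different litters. Scarce genes carry a larger relative counting error, and a count of 0 allows up to 3 counts. Intervals of fold changes are 95% intervals from the DESeq2 standard error.

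The members, the lists and the tests were chosen with earlier results of these data known. All members were named, and of each list up to 4 called genes with the largest absolute log2 fold change with IFN-γ, plus Cgas and Ifnb1, and for each member that rose the tested gene with the most similar profile. The other list genes named (Tlr7, Tlr8, Tlr9, Tlr13, Irf3, Nlrx1, Ifnar1, Ripk3, Eif2ak1, Eif2ak3, Eif2ak4, Sox10, Aldh1l1 and Gja1) were chosen after their values were seen. The level of 1 marker gene is not reported here.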

Additional observations from a re-analysis of the deposited data

How the results depend on the processing

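Of the 10 genes, 9 were called with IFN-γ in all 12 fits that left out a library or replicate number 1, in the 50-count filter fit 8 of the 9 tested (Tlr2 fell under that filter), and 8 both without the block and on protein-coding transcripts, where Tmem173 alone lost its call, as given above. Over all genes, leaving out the replicate block took the calls between IFNg and Ctr from 5238 to 2302 in DESeq2 and from 5606 to 1513 in edgeR, those between IFNg and Dexa from 5661 to 2345 and from 6045 to 1571, and those between Dexa and Ctr from 460 to 98 and from 282 to 22. With only the 2 groups compared, DESeq2 with the block gave 3563 calls between IFNg and Dexa and 1026 between Dexa and Ctr. Leaving out a replicate gave 190 to 542 calls between Dexa and Ctr (lowest without Dexa replicate 2) and 3724 to 5300 between IFNg and Dexa. The cause was not tested. In no fit was any of the 10 genes called between Dexa and Ctr.

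Small log2 differences changed sign, none of them called. For Dexa against Ctr without the block, DESeq2 gave -0.07 for Ddx58, 0.02 for Ifih1, 0.03 for Dhx58, -0.08 for Tlr2 and 0.00 for Eif2ak2, and edgeR gave -0.07, 0.04, 0.02, -0.07 and 0.01. edgeR with the block gave 0.05 for Ifih1 and -0.01 for Tlr2. Ddx58 was at -0.00 with no filter, -0.01 with only the 2 groups and -0.09 on protein-coding transcripts. Dhx58 was at 0.09 and Tlr3 at 0.08 with the length offset, and Dhx58 at 0.02 with only the 2 groups. Leaving out a replicate gave -0.10 to 0.15 for Ddx58, -0.37 to 0.40 for Ifih1, -0.21 to 0.12 for Dhx58, -3.31 to 0.05 for Zbp1, -0.52 to 0.59 for Tlr2, -0.47 to 0.10 for Tlr3 and -0.24 to 0.15 for Eif2ak2. Mavs between IFNg and Dexa was at 0.01 in both fits without the block and with only the 2 groups, and at -0.05 to 0.04 with a replicate left out. Zbp1, Tlr2, Ifih1 and Dhx58 had few counts in Ctr and Dexa, and the part of counting error in these shifts was not tested.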
